A study of Mus musculus with 24 samples.

Results

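Malat1 and Neat1 are long noncoding RNA genes that lie side by side on mouse chromosome 19 and are both transcribed from the minus strand. The regions described here are the protein-protected sites (PPSs) that overlapped either gene body on its own strand by at least 1 nt. There were 294 of them among the 460777 PPSs listed for the 3 days, with 59 on Malat1 and 235 on Neat1. Malat1 carried 21, 20 and 18 of them at days 0, 2 and 4, and Neat1 carried 65, 89 and 81. The method was protein interaction profile sequencing, or PIP-seq. The MEL cells used are murine erythroleukemia cells, arrested as proerythroblasts, a line that matures along the erythroid path when 2% DMSO is added to its medium. Cells were taken at day 0, before DMSO, and after 2 and 4 days of it, as 2 biological replicates per day. Crosslinked lysates were digested with a single-strand-specific nuclease (ssRNase) or a double-strand-specific nuclease (dsRNase), either with proteins still on the RNA or after their removal, which gave 24 libraries in 12 groups of 2. A PPS is a stretch with more reads in the protein-bound library than in its protein-free partner, and each carries an enrichment score and the names of the calls merged into it, each of which names a nuclease and a replicate. A PPS can hold several calls of the same nuclease and replicate.

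Malat1 RNA is one of the most abundant nuclear transcripts of mammalian cells and collects in nuclear speckles, the bodies that hold splicing factors. RNase P cuts its primary transcript just upstream of a tRNA-like small RNA, mascRNA, and the mature 3′ end left behind folds U-rich and A-rich tracts into a triple helix that protects it from decay. Neat1 RNA is the scaffold of paraspeckles, which form around its long isoform and contain NONO, SFPQ and other RNA-binding proteins, while a short polyadenylated isoform shares its 5′ part. Both RNAs stay in the nucleus and are not translated, so ribosome-sized PPSs of 20 to 40 nt were kept, and leaving them out is among the alternatives given at the end.

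In mm10 coordinates Malat1 (ENSMUSG00000092341.3) spans chr19:5795690-5802672 and Neat1 (ENSMUSG00000092274.3) spans chr19:5824708-5845478, lengths of 6983 and 20771 nt, and the annotated exons of each cover its whole gene body. The genes are 22035 nt apart. No PPS of any day lay on the opposite strand of either gene, and none lay between them on the same strand. Positions below count from 1 at the 5′ end of each gene. A single PPS crossed a gene end, at the 5′ end of Neat1 at day 0.

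The sequences below are those of the highest-scoring PPS of each day on Malat1, read from the RefSeq copy of GRCm38 on the minus strand, with T for U. Where a PPS was longer than 300 nt, its central 300 nt are shown, and capitals mark nucleotides that lay inside a PPS at all 3 days.
Malat1, day 0, chr19:5801243-5801542, minus strand, nt 1131 to 1430 of the gene: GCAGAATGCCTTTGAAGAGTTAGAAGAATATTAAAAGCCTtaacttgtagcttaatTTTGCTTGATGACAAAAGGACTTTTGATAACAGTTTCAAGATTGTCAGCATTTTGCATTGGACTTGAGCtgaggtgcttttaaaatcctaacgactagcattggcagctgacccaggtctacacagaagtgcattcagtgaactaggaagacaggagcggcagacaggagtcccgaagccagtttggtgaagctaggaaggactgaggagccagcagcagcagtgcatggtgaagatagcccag
Malat1, day 2, chr19:5797511-5797810, minus strand, nt 4863 to 5162: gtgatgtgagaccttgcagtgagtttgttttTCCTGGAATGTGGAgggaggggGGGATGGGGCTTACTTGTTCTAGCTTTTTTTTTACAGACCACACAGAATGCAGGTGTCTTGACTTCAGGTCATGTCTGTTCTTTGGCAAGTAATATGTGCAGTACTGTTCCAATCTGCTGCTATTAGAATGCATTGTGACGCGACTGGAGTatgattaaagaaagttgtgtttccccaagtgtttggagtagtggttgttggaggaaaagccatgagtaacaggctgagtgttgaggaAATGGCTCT
Malat1, day 4, chr19:5798274-5798573, minus strand, nt 4100 to 4399: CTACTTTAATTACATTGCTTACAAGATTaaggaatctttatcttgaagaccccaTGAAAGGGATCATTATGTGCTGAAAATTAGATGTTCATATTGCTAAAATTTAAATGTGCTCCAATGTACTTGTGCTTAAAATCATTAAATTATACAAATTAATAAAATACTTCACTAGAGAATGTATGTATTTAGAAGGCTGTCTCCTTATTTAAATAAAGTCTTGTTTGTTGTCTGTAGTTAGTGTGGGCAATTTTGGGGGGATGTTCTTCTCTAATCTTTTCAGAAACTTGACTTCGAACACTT
The day 0 PPS was 1151 nt long with a score of 138.6, the day 2 PPS 590 nt with 139.6 and the day 4 PPS 980 nt with 68.6. The first of them held calls of both nucleases, as did the second, and the third held dsRNase calls only. Of the 300 nt shown, 109 lay inside a PPS at every day for the first, 174 for the second and 274 for the third. Each site is inside a PPS of its own day by definition, so these counts depend on the coverage of the other 2 days. Over the whole gene, 76.4% was inside PPSs at both days 0 and 2, 53.2% at days 0 and 4 and 47.4% at days 2 and 4. The GC content of the day 4 stretch was 30.7%, against 45% and 44.7% for the others.

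A further pair of Malat1 stretches is shown next. The first is the only day 4 PPS that held calls of both ssRNase replicates (nt 2343 to 2420, score 30.02, capitals as above). The second, chosen for its known role, joins the last 100 nt before mascRNA to mascRNA itself, which here is in capitals (nt 6592 to 6749, chr19:5795924-5796081, with mascRNA as RefSeq annotates it at chr19:5795924-5795981).
Malat1, day 4, both ssRNase replicates, chr19:5800253-5800330, minus strand: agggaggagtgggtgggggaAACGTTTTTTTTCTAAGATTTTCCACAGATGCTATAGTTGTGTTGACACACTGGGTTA
Malat1, mature 3′ end and mascRNA, chr19:5795924-5796081, minus strand: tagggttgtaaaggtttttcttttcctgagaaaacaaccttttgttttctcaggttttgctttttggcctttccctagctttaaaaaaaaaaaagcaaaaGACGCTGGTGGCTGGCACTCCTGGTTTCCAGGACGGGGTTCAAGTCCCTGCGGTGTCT
The 78-nt site held 4 overlapping matches of TTTTT, the first at its position 25, a word found in 7.86% of the 17869 day 0 PPSs within 10% of its length. The 3′ end held 2 matches of TTTTT, at positions 15 and 61 of the stretch shown, a word that 14.1% of 2583 day 0 PPSs of like length held. Its A-rich tract stands directly before the capitals.

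On Neat1 the highest-scoring PPS of every day lay within the part shared with the short isoform, and all 3 fell into chr19:5842353-5844101, the joined region of Neat1 with the highest summed score, 1036.4 over 1749 nt. On Malat1 the joined region with the highest summed score was chr19:5799250-5801968, 2719 nt long, which holds the day 0 site and the 78-nt site shown above.
Neat1, day 0, chr19:5843215-5843514, minus strand, nt 1965 to 2264: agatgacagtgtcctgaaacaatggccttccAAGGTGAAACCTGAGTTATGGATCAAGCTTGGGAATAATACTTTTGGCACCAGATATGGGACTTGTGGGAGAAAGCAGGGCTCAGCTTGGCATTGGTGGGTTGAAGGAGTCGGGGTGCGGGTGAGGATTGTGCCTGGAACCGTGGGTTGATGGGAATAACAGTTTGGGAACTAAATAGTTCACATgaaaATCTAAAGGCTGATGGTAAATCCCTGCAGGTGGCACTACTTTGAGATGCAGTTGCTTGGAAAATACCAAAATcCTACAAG
Neat1, day 2, chr19:5842567-5842795, minus strand, nt 2684 to 2912: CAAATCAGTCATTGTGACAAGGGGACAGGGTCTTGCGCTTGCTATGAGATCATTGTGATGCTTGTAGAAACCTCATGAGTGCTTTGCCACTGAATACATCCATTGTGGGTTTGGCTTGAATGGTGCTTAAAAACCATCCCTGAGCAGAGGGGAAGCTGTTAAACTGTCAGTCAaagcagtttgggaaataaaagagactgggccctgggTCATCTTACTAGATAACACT
Neat1, day 4, chr19:5843447-5843746, minus strand, nt 1733 to 2032: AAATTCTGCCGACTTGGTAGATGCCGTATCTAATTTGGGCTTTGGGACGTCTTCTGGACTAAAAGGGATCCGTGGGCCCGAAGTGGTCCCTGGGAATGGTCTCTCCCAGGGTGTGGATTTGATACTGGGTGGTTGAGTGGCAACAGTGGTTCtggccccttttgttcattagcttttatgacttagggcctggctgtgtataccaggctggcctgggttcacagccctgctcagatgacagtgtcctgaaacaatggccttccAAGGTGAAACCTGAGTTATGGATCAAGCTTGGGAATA
These PPSs were 779, 229 and 596 nt long, with scores of 147.2, 65.0 and 157.1. Of the bases shown, 264 of 300, 193 of 229 and 189 of 300 were protected at every day. None of the 3 stretches held TTTTT or ATTTA, which 18.7% and 20.1% of the 219 day 0 PPSs within 10% of 300 nt held. For the 229-nt stretch of day 2, the shares were 21.3% and 20.3% of 629 PPSs of like length. Most PPSs of like length thus lacked each word too, and the day 0 and day 4 stretches overlap.

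Malat1 was covered by ssRNase sites over most of its length at days 0 and 2 and had few of them at day 4, when dsRNase sites still covered much of it. PPSs with an ssRNase call covered 85.0% of the gene body at day 0, 79.2% at day 2 and 5.06% at day 4, and PPSs with a dsRNase call covered 72.8%, 71.1% and 59.2%. Over both nucleases the coverage was 86.5%, 80.3% and 60.7%. Coverage of a call set counts the full length of each PPS that holds at least 1 of its calls. Because calls of both replicates and both nucleases were merged into shared PPSs by the authors, replicate values share their boundaries and their spread is understated. For the same reason, coverage by 1 nuclease can include stretches called only with the other.

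By replicate, ssRNase coverage of Malat1 was 84.7 and 77.6% at day 0, 79.2 and 62.8% at day 2 and 3.59 and 2.58% at day 4. The replicates of day 4 lay far below those of both earlier days, which overlapped each other. The mean was 81.1% ± 5.03 (SD, n = 2) at day 0 and 3.09% ± 0.719 at day 4, and the difference between days 4 and 0 ran from −82.1 to −74.0 percentage points over the 4 pairs of replicates. With 2 replicates per day an exact permutation test, two-sided, cannot give a p below 0.333, so none was run and each comparison is given by the range over pairs. Among 9043 genes with at least 1000 exonic nt and an ssRNase PPS at either day, both day 4 replicates lay below both day 0 replicates in 24.4%, so the direction alone was common among genes.

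dsRNase coverage of Malat1 was 61.6 and 58.2% at day 0, 45.6 and 70.1% at day 2 and 58.6 and 33.8% at day 4. The replicates of any 2 days overlapped, and the difference between days 4 and 0 ran from −27.8 to 0.415 percentage points. The nuclease contrast therefore turned round. At day 0 ssRNase coverage exceeded dsRNase coverage by 15.9 to 26.5 points over the 4 pairs. At day 2 the pairs ran from −7.27 to 33.6, and at day 4 they ran from −56.1 to −30.2. The authors split each sample between the nucleases, so both values of a replicate come from the same sample. Within replicates 1 and 2 the difference was 23.1 and 19.3 points at day 0. It was 33.6 and −7.27 points at day 2 and −55.0 and −31.2 points at day 4.

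**Figure D1:**
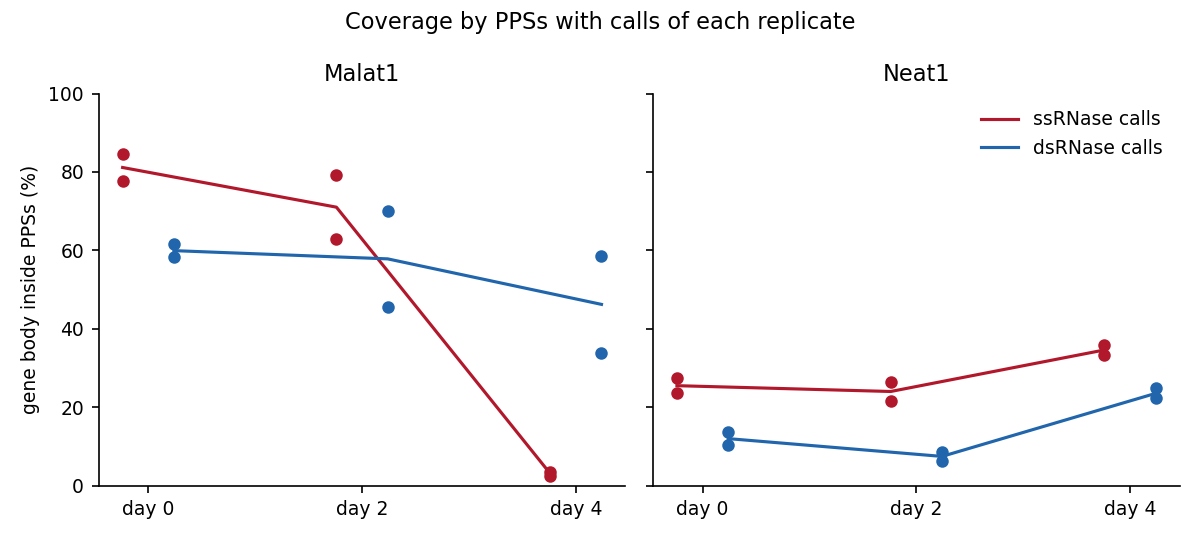
Percentage of the Malat1 and Neat1 gene bodies inside PPSs at days 0, 2 and 4. Each point is 1 replicate, lines join the means of the 2 replicates, red marks PPSs with an ssRNase call and blue those with a dsRNase call. On Malat1 the ssRNase points of day 4 sit at 3.59 and 2.58% while both nucleases lie higher at day 4 than at day 0 on Neat1.

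The number of calls, which does not depend on how long the merged PPSs were, showed the same contrast. Malat1 held 27 and 27 ssRNase calls in the replicates of day 0, 25 and 18 at day 2 and 2 and 2 at day 4. Its dsRNase calls numbered 13 and 12, then 14 and 17, then 16 and 10. In the same day 4 ssRNase libraries Neat1 held 70 and 59 calls and the whole lists 55143 and 54229, against 63917 and 57986 at day 0. The ssRNase share of calls was 68.4%, 58.1% and 13.3% on Malat1 at days 0, 2 and 4, and 61.6%, 72.8% and 47.5% in the whole lists. Whether fewer calls came from less Malat1 RNA per cell, fewer cells holding it or less protein on it cannot be told apart in these pooled lists, which carry no RNA level, and the dsRNase calls of the same days are the only other readout of Malat1 in them.

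Taking both nucleases together, both day 4 replicates of Malat1 lay below both of day 0, with 86.2 and 83.5% at day 0 against 58.6 and 36.4% at day 4. The pairs differed by −49.8 to −24.8 points. The pooled difference was −25.9 points, and without day 4 replicate 1 it was −50.2. Over all 9852 genes tested this pattern occurred in 25.9%. At day 2 the replicates were at 80.3 and 76.2%, and the pairs differed from day 0 by −9.97 to −3.14 points, a direction shared by 26.6% of 10077 genes.

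**Figure D2:**
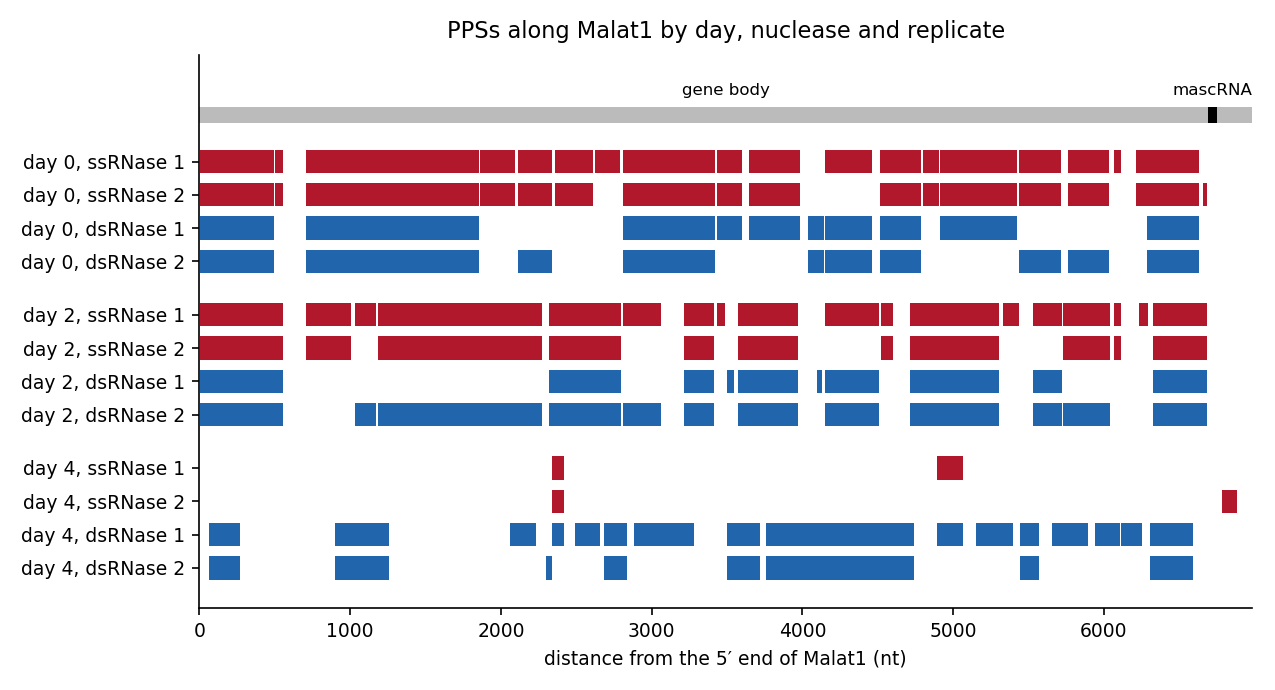
PPSs along Malat1, drawn by distance from its 5′ end in nt, with a row for each of the 12 call sets (day, nuclease and replicate). A bar is a merged PPS that holds at least 1 call of that set, red for ssRNase and blue for dsRNase, the grey bar is the gene body and black marks mascRNA. The ssRNase rows of day 4 hold 3 distinct PPSs, and the dsRNase rows of that day hold 16 and 10 calls in replicates 1 and 2.

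The lower ssRNase coverage of day 4 held along the whole transcript. In windows of 1000 nt, ssRNase coverage at day 0 ran from 53.8 to 99.7% and at day 4 from 0 to 10.7%, and it was lower in 7 of 7 windows. Pooled dsRNase coverage was lower in 4 of the 7 windows and higher in 3. dsRNase coverage differed most in the 5′ part. Windows 1 and 2, nt 1 to 2000, had dsRNase coverage of 78.7 and 85.5% at day 0 and 30.9 and 25.5% at day 4. In window 3, next to them, the pooled value was higher at day 4, with 41.5% and then 72.4%, but the replicates went opposite ways. Replicate 1 went from 19.2 to 68.4% there and replicate 2 from 41.5 to 18.8%. In window 5, nt 4001 to 5000, pooled dsRNase coverage was 77.3% and then 84.6%. In windows 1 and 2 the day 0 values came from PPSs at nt 2 to 492 and 705 to 1855 with calls of both nucleases. The reach of their dsRNase calls is not listed, and the day 4 PPSs there held dsRNase calls only. The longest stretch of Malat1 without any PPS grew from 302 nt at day 0 and 300 nt at day 2, both at the 3′ end of the annotated gene, to 805 nt at day 4, from nt 1256 to nt 2060. The first 100 nt of the RNA were covered over 99% at day 0, 97% at day 2 and 40% at day 4.

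At the mature 3′ end, which carries the triple helix, the last 100 nt before mascRNA were covered over 64% at day 0, 92% at day 2 and 0% at day 4. At day 2 the PPS over this stretch, at nt 6329 to 6683, held 1 call of each of the 4 call sets. At day 0 the PPS at nt 6290 to 6631, with calls of all 4 sets, covered 40% of it. A 24-nt PPS with an ssRNase call of replicate 2 brought that set to 64%. The positions of single calls are not listed, so which sets reached into the last 100 nt is not known. The day 4 PPS nearest to it held dsRNase calls of both replicates and ended at nt 6591, 1 nt short of the window. mascRNA itself was inside no PPS at any day. At day 4 a PPS with a lone ssRNase call of replicate 2 lay downstream of mascRNA at nt 6783 to 6884, with a score of 5.4, the lowest score in the lists.

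The individual sites of Malat1 were long and well replicated at day 0. The PPS at nt 2 to 492 held 7 calls and a score of 113.4, the one at nt 705 to 1855 held 11 calls and the one at nt 2809 to 3423 held 10 calls and a score of 103.2. The last large site, at nt 6290 to 6631, had 6 calls and a score of 99.0, with at least 1 from each call set. Of the 21 day 0 PPSs, 18 held calls of both replicates, as did 15 of 20 at day 2 and 8 of 18 at day 4. At day 2 the leading PPS, at nt 4718 to 5307, held 12 calls from all 4 sets.

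At day 4 the strongest site was the dsRNase PPS at nt 3760 to 4739 with 1 call of replicate 1 and 3 of replicate 2. The 3 PPSs with ssRNase calls were the 78-nt site shown above, a 173-nt site at nt 4894 to 5066 with 1 ssRNase and 1 dsRNase call, both of replicate 1, and the site beyond mascRNA. By the nuclease of their calls, ssRNase only, dsRNase only or both, the PPSs of Malat1 numbered 8, 1 and 12 at day 0, 6, 2 and 12 at day 2, and 1, 15 and 2 at day 4. dsRNase-only PPSs were 83.3% of the Malat1 sites at day 4, against 45.7% of the whole list. The median score on Malat1 was 31.8, 28.4 and 13.7 at days 0, 2 and 4, and in the whole lists 6.82, 8.14 and 6.82.

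Neat1 went the other way, with more of its length protected at day 4 than at day 0 under both nucleases. Over all calls its coverage was 32.1%, 32.4% and 44.2% at days 0, 2 and 4. By replicate it was 28.0 and 25.5%, then 23.4 and 27.0%, then 38.9 and 38.0%. Both day 4 replicates lay above both day 0 replicates, by 9.99 to 13.4 points, a direction seen in 31.2% of 9852 genes, while day 2 overlapped day 0. Leaving out 1 replicate at a time, the pooled difference between days 4 and 0 of 12.1 points became 18.7 without day 0 replicate 1, 5.93 without day 4 replicate 1 and 6.78 without day 4 replicate 2, since a day with 1 replicate holds fewer PPSs than a pooled day.

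ssRNase coverage of Neat1 was 27.4 and 23.6% in the replicates of day 0, 21.7 and 26.3% at day 2 and 35.9 and 33.4% at day 4. The day 4 values exceeded those of day 0 by 5.99 to 12.2 points, and 24.3% of 9043 genes had the same direction. dsRNase coverage was 10.4 and 13.6% at day 0, 8.67 and 6.25% at day 2 and 22.3 and 24.8% at day 4. Day 4 was above day 0 by 8.69 to 14.4 points in this set, as in 29.8% of 9146 genes, and day 2 differed from day 0 by −7.31 to −1.76 points, with both replicates below, as in 29.2% of 8839 genes. dsRNase calls on Neat1 numbered 13 and 20 at day 0, 15 and 12 at day 2 and 42 and 39 at day 4, beside 34589 and 41265, 41323 and 20927, and 68632 and 52174 in the whole lists, so the lists themselves held more dsRNase calls at day 4. The part of the list totals in the Neat1 values was not tested. ssRNase calls on Neat1 numbered 54 and 45, 60 and 65, and 70 and 59, while the whole-list ssRNase calls of day 4 were fewer than those of day 0. ssRNase coverage stayed above dsRNase coverage on Neat1 at each day, by at least 8.53 points over the pairs.

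**Figure D3:**
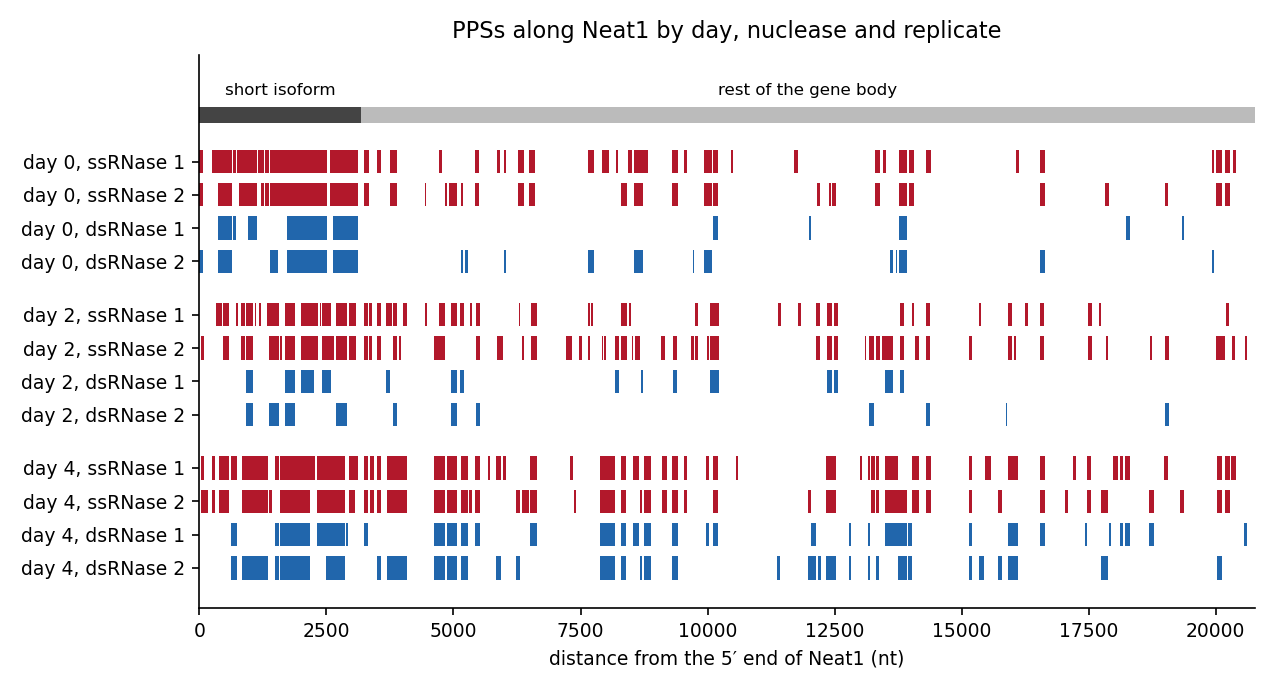
PPSs along Neat1, drawn by distance from its 5′ end in nt, with a row for each of the 12 call sets (day, nuclease and replicate). A bar is a merged PPS that holds at least 1 call of that set, red for ssRNase and blue for dsRNase, and the dark bar at the top is the part shared with the short isoform, nt 1 to 3172. Bars crowd into that part at every day, and the dsRNase rows of day 4 hold many bars beyond it, where coverage by dsRNase sites was 27.4% against 7.15% at day 0.

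The protection of Neat1 was concentrated in its 5′ part. The 3172 nt shared with the annotated short isoform were covered over 86.8% at day 0, 66.5% at day 2 and 81.9% at day 4, and the remaining 17599 nt, which only the long isoform holds, over 22.2%, 26.2% and 37.4%. The difference was 64.6, 40.3 and 44.5 points. In the replicates the shared part had 86.8 and 78.7% at day 0, 61.1 and 56.7% at day 2 and 78.0 and 76.5% at day 4, while the rest had 17.4 and 15.9%, 16.6 and 21.6%, and 31.8 and 31.1%. The day 4 values of the shared part lay below both of day 0, though the closest were 78.0 and 78.7%, and those of the rest lay above both. Such directions were not counted for parts of other genes. Over whole genes, day 4 lay below day 0 in 25.9% and above it in 31.2%. Pooled, the shared part went from 2753 covered nt at day 0 to 2597 at day 4 and the rest from 3910 to 6579. The higher pooled coverage of Neat1 at day 4 thus lay in the long-isoform part. The lists do not say which isoform a protected fragment came from in the shared part.

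Windows of 1000 nt gave the same picture. Of 21 windows, 16 had higher and 5 lower coverage at day 4 than at day 0, and this count was the same for ssRNase and dsRNase sites. Window 16, nt 15001 to 16000, had no PPS at day 0, 20.4% at day 2 and 44.8% at day 4, and window 5, nt 4001 to 5000, had no dsRNase site at day 0 and 43.6% at day 4. Window 14, nt 13001 to 14000, was at 40.2%, 47.7% and 71.1%. The longest stretch without a PPS was 1685 nt at day 0, from nt 14394, then 1165 nt at day 2 and 772 nt at day 4. The first 100 nt of Neat1 were covered over 78%, 59% and 63%. Its last 100 nt, next to the end that RNase P leaves, were inside no PPS at any day, and neither was the annotated small RNA Gm27702 just downstream.

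Among sites of the long-isoform part, the PPS at nt 7888 to 8184 of day 4 had a score of 65.9 and 9 calls from all 4 sets, and the day 0 PPS at nt 10100 to 10199 had a score of 58.3 with 3 calls. At day 2 the site at nt 4710 to 4825 held 1 call of each ssRNase replicate and a score of 52.7, and at day 4 a longer PPS at nt 4622 to 4834 over it held 6 calls from all 4 sets. Of the Neat1 PPSs, 44.6% held calls of both replicates at day 0, 38.2% at day 2 and 55.6% at day 4, beside 26.2%, 23.2% and 29.5% of the whole lists. Sites with calls of both nucleases numbered 16 of 65, 21 of 89 and 39 of 81.

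The sites of Malat1 were longer than those of Neat1 at each day. The median length on Malat1 was 250 nt at day 0, 225.5 nt at day 2 and 172 nt at day 4, and on Neat1 73, 62 and 85 nt, with 58, 50 and 56 nt in the whole lists. Sites of at least 200 nt were 13 of 21, 10 of 20 and 8 of 18 on Malat1 and 3 of 65, 2 of 89 and 9 of 81 on Neat1, and 0.972, 0.435 and 0.978% of the whole lists. Ribosome-sized PPSs of 20 to 40 nt were 1 on Malat1 at each day and 7, 17 and 7 on Neat1. A merged PPS is at least as long as its calls, so PPSs made of a lone call are given apart. On Malat1 the 8 lone dsRNase calls of day 4 had a median length of 169 nt, and on Neat1 the 8 of day 4 had 47.5 nt. At the earlier days lone calls were closer in length. Lone ssRNase calls of day 0 had medians of 52 nt on Malat1 (3 PPSs) and 61 nt on Neat1 (27 PPSs). Those of day 2 had 56 nt (3 PPSs) and 47 nt (49 PPSs), and lone dsRNase calls of day 2 had 37.5 and 33 nt (2 PPSs each). Lone calls made up 3 of 21 Malat1 PPSs at day 0 and 5 of 20 at day 2, so most of its sites there were merged.

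**Figure D4:**
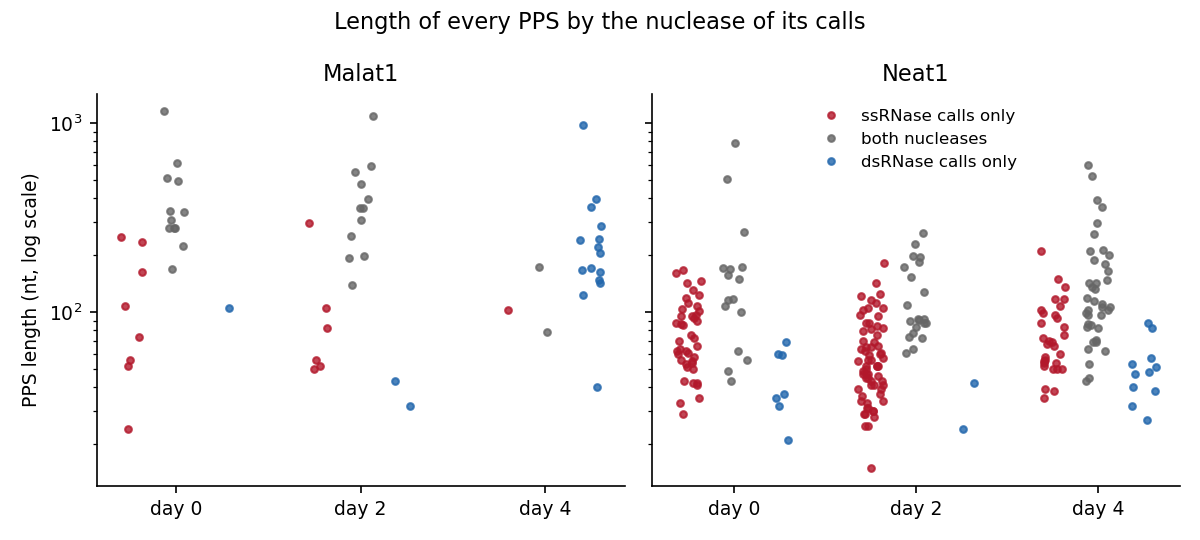
Length of each PPS on Malat1 and Neat1 at days 0, 2 and 4, on a log axis in nt, with a point per PPS and a small sideways scatter. Red points hold ssRNase calls only, blue points dsRNase calls only and grey points calls of both. On Malat1 the grey points of days 0 and 2 give way to 15 blue points at day 4, and on Neat1 the grey points increase from 16 at day 0 to 39 at day 4.

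On Malat1 the PPSs of days 0 and 4 shared 3716 nt. These were 87.7% of the day 4 nucleotides, where 86.5% of the whole gene was covered at day 0, and 61.5% of the day 0 nucleotides, where 60.7% of the gene was covered at day 4, so the overlap was close to the coverage itself. In all, 44.4% of the gene was inside a PPS at all 3 days. On Neat1 days 0 and 4 shared 5418 nt, 81.3% of the day 0 nucleotides, beside a coverage of 44.2% at day 4, and 59.0% of the day 4 nucleotides, beside 32.1% at day 0, and 18.3% of the gene was protected at all 3 days. When PPSs of the 3 days were joined wherever they overlapped, Malat1 fell into 5 regions, of which 4 held a PPS of every day, and Neat1 into 81, of which 33 did, or 40.7%. With calls of both replicates required it was 11 of 47 Neat1 regions, or 23.4%. The share, without that requirement, was 17% over the 270630 regions of the whole series, where PPSs were shorter and overlap less easily. On Neat1 15 regions (18.5%) were seen at day 4 only, 8 (9.88%) at day 2 only and 3 (3.70%) at day 0 only, beside 18.6, 22.0 and 16.0% of the regions of the whole series.

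Among all genes, Malat1 was among the most covered at each day. By pooled exonic coverage it ranked 2 of 8985 genes at day 0, 1 of 9566 at day 2 and 35 of 8878 at day 4, counting genes with at least 1000 exonic nt and a PPS at that day. By ssRNase sites alone its rank was 2, 1 and 3642, and by dsRNase sites 4, 1 and 13. Its mean ssRNase change between days 0 and 4, −78.0 points, had no gene of the 9043 below it, and the next, the lincRNA gene Gm32122, was at −53.7 points. The dsRNase change of Malat1, −13.7 points, had 79 of 9146 genes below it.

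Neat1 ranked 371, 205 and 152 among all genes by pooled coverage and 20, 11 and 8 among the 241, 273 and 240 long noncoding RNA genes with a PPS. Its changes from day 0 to day 4 lay high in the distribution, with 258 of 9043 genes above it for ssRNase and 223 of 9146 for dsRNase sites. Of the PPS-covered exonic nucleotides of all long noncoding RNA genes, Malat1 held 5.06% and Neat1 5.58% at day 0, and 3.64% and 7.89% at day 4.

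**Figure D5:**
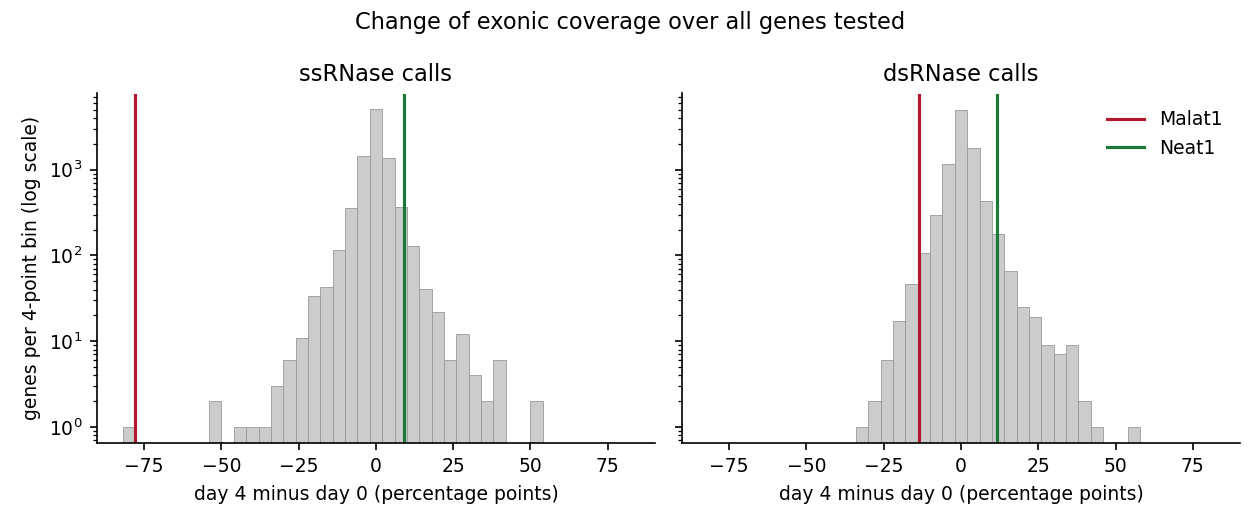
Exonic coverage at day 4 minus that at day 0, in percentage points, as the mean of 2 replicates, for 9043 genes with ssRNase sites (left) and 9146 genes with dsRNase sites (right). Grey bars count genes per bin of 4 points on a log axis, and the red and green lines mark Malat1 and Neat1. The red line on the left stands apart at −78.0 points, and on the right it lies at −13.7 points among other genes.

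A limit chosen after the Malat1 values were seen put this beside comparable genes. In all, 10 genes had ssRNase coverage of at least 50% in both day 0 replicates, and 4 of them were still at 50% or more in both at day 4. Malat1 and Gm32122 were below 10% in both at day 4. dsRNase coverage of Gm32122 was low as well at day 4, with 7.75 and 32.4% at day 0 and 0 and 3.90% at day 4, where Malat1 had 58.6 and 33.8%.

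By closeness over the 12 call sets, measured as the Euclidean distance in exonic coverage over 7870 genes with PPSs at all 3 days, Malat1 had no close match. Its nearest were the snoRNA host genes Gas5 and Snhg1 and the microRNA host gene Mir17hg, at a root-mean-square difference of 25.1, 26.0 and 26.3 points per call set. All 3 had ssRNase coverage above 50% in each day 4 replicate, with 58.8 and 57.8% for Gas5. Neat1 had close neighbours, Kmt2d, Birc2 and Itga2b, at 3.92, 4.00 and 4.53 points. Kmt2d, which encodes a histone methyltransferase, had pooled coverage of 35.6%, 33.9% and 49.99% at days 0, 2 and 4.

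The parts of Malat1 protected at day 4 were poorer in G and C than the rest of it. The whole gene had a GC content of 42.5%. Nucleotides inside PPSs at day 4 had 39.9% and those outside 46.5%, while at day 0 the inside had 42.1% and the outside 44.8%. The 2327 nt protected at day 0 but not at day 4 had 46.7% GC, with 31.0% G. On Neat1 the inside had 49.6% GC and the outside 46.2% at day 0, and 48.7 and 46.1% at day 4.

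Repeats, given as soft-masked letters of the reference, were rare in the protected parts of Neat1. They made up 3.81% of the nucleotides inside PPSs and 20.2% of those outside at day 0, 3.66 and 20.3% at day 2 and 4.27 and 23.4% at day 4. On Malat1 the shares were 9.07% inside and 26.7% outside at day 0 and 9.51 and 14.4% at day 4. Reads with up to 10 alignments were kept by the authors, and the part of read mapping in these shares was not tested.

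Short words known from RNA-binding proteins were counted on the transcript strand only, with overlapping matches counted and T for U. Of 140 matches of TTTTT on Neat1, a word of U-rich binders such as HuR and TIA1, 6, 6 and 13 lay inside PPSs at days 0, 2 and 4 (4.29, 4.29 and 9.29%), where 30.8, 30.7 and 42.6% of all windows of that length did. Of the 35 matches outside soft-masked sequence, 17.1% lay inside at day 0, against 35.3% of such windows, so most of the TTTTT matches of Neat1 sat in repeats. GGACT, the consensus for m6A, had 14 of 23 matches inside at day 0 (60.9%) and 16 of 23 at days 2 and 4 (69.6%), above those shares of windows. CCCC, bound by poly(C) binders such as HNRNPK, had 10 of 57 matches inside at day 0 (17.5%) and 13 of 57 at day 4 (22.8%), where 31.1 and 43.0% of windows of its length were inside.

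On Malat1 85.4, 79.2 and 59.7% of all windows of 5 nt lay inside PPSs at days 0, 2 and 4, so most matches of any word would be inside at days 0 and 2. GTGTG, a word of CELF proteins, had 11 of 11 matches inside at days 0 and 2 and 4 of 11 at day 4 (36.4%). GAAGAA, a word of SR proteins, had 7 of 7 at days 0 and 2 and 2 of 7 at day 4 (28.6%), where 85.1, 78.9 and 59.4% of windows of its length were inside. TTTTT had 39 of 46 matches inside at day 0 and 34 of 46 at day 4 (73.9%). Only 11 of its matches lay outside soft-masked sequence. Of these, 8 (72.7%) were inside at day 0 and at day 4, where 87.8 and 61.1% of such windows were. GGACT had 9 of 9 matches inside at day 0 and 6 of 9 at day 4 (66.7%), near the shares of all windows. TGTANATA, the Pumilio word, had no match on Malat1 and 4 on Neat1, none of them inside a PPS. The counts are small and describe these sequences, not binding.

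Genes whose proteins work with both RNAs are given from fixed lists, by the pooled share of their exonic nucleotides inside PPSs. Of 23 genes for paraspeckle proteins, 22 had a PPS, and between days 0 and 4 coverage was higher in both replicates for 6 and lower for 5, beside 31.2% and 25.9% of all genes. The median change was 0.19 points for the list and 0.15 points over 9852 genes. The largest differences were those of Taf15, an RNA-binding protein, with 39.98% at day 0 and 13.7% at day 4, and Rbm12, with 11.9% and 28.7%. Of 20 nuclear speckle genes, 16 had a PPS, with 4 higher and 5 lower and a median change of −0.32 points. Srsf2, a splicing factor, was at 68.2% and then 56.0%, and Thoc2, of the mRNA export complex THO, at 10.8% and then 16.4%.

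The genes that make or bind the Malat1 3′ end, which are the subunits of RNase P, the tRNA 3′ processing enzyme Elac2 and the triple-helix binder Mettl16, numbered 13. Of these, 11 had a PPS, with 5 lower and 1 higher at day 4, beside 25.9% lower and 31.2% higher of all genes, and the median change was −3.54 points, beside 0.15 over all genes. Pop7 went from 31.2 to 5.37% and Pop1 from 20.9 to 7.01%.

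The list of other long noncoding RNAs held members of both directions. Of 15 annotated members of that list 8 had a PPS, 4 were higher and 3 lower at day 4, beside 31.2% and 25.9% of all genes, and the median change was 6.15 points. Firre, a nuclear RNA that organises chromatin, was at 19.6% and then 36.8%, and 2900097C17Rik at 33.4% and then 51.0%. Gas5, the gene nearest to Malat1, was at 82.3% and then 72.2%, with ssRNase coverage of 80.5% and then 61.9%. A pair of short nuclear RNAs, chosen after their values were seen, had no ssRNase site at day 4 while dsRNase sites covered them. Rmrp, the RNA of RNase MRP, was covered by ssRNase sites over 84.5%, 100% and 0% at days 0, 2 and 4 and by dsRNase sites over 62.4%, 100% and 98.9%. Rpph1, the RNA of RNase P, had 44.8%, 79.6% and 0% by ssRNase sites and 0%, 62.4% and 44.8% by dsRNase sites.

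Of the 7 genes that flank the locus, 5 had a PPS, with 1 higher and 2 lower at day 4, beside 31.2% higher and 25.9% lower of all genes. Pola2, a subunit of DNA polymerase alpha, went from 11.4 to 3.03% and Slc25a45, a mitochondrial carrier, from 7.78% to no PPS. As a check of the cells, 12 of 13 erythroid marker genes held a PPS at day 0 and 13 at day 4, and 10 had higher coverage at day 4 in both replicates with none lower, beside 31.2% higher and 25.9% lower of all genes. Of 10 markers of other blood lineages, Pf4 and Itga2b, which megakaryocytes use, were the ones with PPSs. Pf4 was at 46.3% at day 0 and lower, at 16.6%, at day 4, and Itga2b was at 39.6% and higher, at 47.9%, at day 4.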

How the data were processed

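PPSs were measured by PIP-seq in 24 libraries of MEL cells. Per the study's methods and the submitters' processing notes, the authors trimmed reads with cutadapt 1.2.1, aligned them to mm10 with TopHat2 2.0.10 keeping up to 10 alignments per read, and called PPSs at an FDR of 5% in each protein-bound library against its protein-free partner. The deposited lists, 1 per day, pool both replicates and both nucleases. The deposited score of a PPS is the authors' enrichment score, with a lowest value of 5.4 in the lists, and the names of the merged calls in the deposited name column are of another kind, text from which the nuclease and replicate of each call were read.

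The lists give no read counts, so the depth of each library is unknown and no interval for it is given. Groups came from the sample labels. With Python 3.11.15, NumPy 2.4.6 and matplotlib 3.10.9, PPSs were assigned to GENCODE M21 genes on the same strand at an overlap of at least 1 nt, and coverage was the percentage of gene-body or exonic nucleotides inside PPSs. Comparisons over all genes used those with at least 1000 exonic nt. The fixed lists had no such limit and held shorter genes, such as the globin genes, Pf4 and Rmrp. A gene counted as higher or lower where both replicates of one day lay above or below both of the other. No p-value is given. The computation was checked on simulated data.

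Genes named beside Malat1 and Neat1 were the 3 nearest to each over the 12 call sets and from every list the 2 genes whose coverage differed most between days 0 and 4, and others are marked where they were chosen after their values were seen. The members and lists were chosen with earlier results of these data known. Alternatives left out PPSs of 20 to 40 nt, required a score of at least 10, took the same number of top-scoring PPSs per day, required calls of both replicates, used 1 nuclease, kept only PPSs wholly inside a gene, joined PPSs only at 50% overlap, or left out each replicate. Some of the words searched are not reported here.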

Additional observations from a re-analysis of the deposited data

Results flagged for a closer look

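On Malat1 the difference between ssRNase and dsRNase coverage had opposite signs at days 0 and 4 in every pair of replicates. Its mean was 21.2 percentage points at day 0 and −43.1 at day 4. On Neat1 it was 13.5 and 11.1 points. The difference between the days was not tested. The whole lists also held fewer ssRNase and more dsRNase calls at day 4 than at day 0.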

How the results depend on the processing

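The difference in Neat1 coverage between days 2 and 0, 0.298 points, had no stable sign. It was −1.20 without PPSs of 20 to 40 nt, −3.65 at a score of at least 10, −0.881 with equal numbers of PPSs per day, −3.44 with calls of both replicates required and −2.99 for dsRNase sites, and leaving out 1 replicate gave −8.68 (without day 2 replicate 2) to 6.90, with −5.12 without day 2 replicate 1. The difference between days 4 and 0 kept its sign under each alternative run. For Malat1, −25.9 points, it was −48.8 with calls of both replicates required and −80.0 for ssRNase sites, and −50.2 to −22.8 with 1 replicate left out. For Neat1, 12.1 points, it was 16.5 for dsRNase sites and 5.93 to 18.7 with 1 replicate left out. The Malat1 difference between days 2 and 0, −6.22 points, was −1.66 for dsRNase sites and −10.3 to −3.14 with 1 replicate left out.

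The excess of the shared part of Neat1 over the rest was 72.0 points at a score of at least 10 and 56.8 for dsRNase sites at day 0, 28.8 for dsRNase sites at day 2, and at day 4 it was 42.1 at a score of at least 10, 47.1 with both replicates required, 46.7 for ssRNase and 32.2 for dsRNase sites. With 1 replicate left out it was 62.8 to 69.4 at day 0, 35.1 to 44.5 at day 2 and 45.4 to 46.2 at day 4. The pooled ssRNase minus dsRNase difference of Malat1, 12.2, 8.12 and −54.2 points at days 0, 2 and 4, became 19.3 to 23.1, −7.27 (without day 2 replicate 1) to 33.6, and −55.0 to −31.2. That of Neat1 became 10.1 to 16.9, 13.0 to 20.1 and 8.53 to 13.6. The share of Neat1 regions seen at all 3 days was 23.4% with both replicates required. The cause of these shifts was not tested. Of 18 values of PPS counts under alternatives, 7 moved by over 1.5 times, all downward under a stricter score or both replicates. No paired analysis was possible because the results come from no test, so there was no fit to which the replicate number could be added. Same-numbered replicates are among the 4 pairs whose range is given with each comparison. The nuclease differences of Malat1 within each replicate are given beside their range. Without read counts, a site missing from a list cannot be told apart from one below the depth needed to call it.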
